A study of Homo sapiens with 6 samples.

Results

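The genes described here encode 10 AP-1 and immediate early transcription factors, many of which cells switch on early after a stimulus. They are the JUN genes JUN, JUNB and JUND, the FOS genes FOS, FOSB, FOSL1 and FOSL2, and ATF3, EGR1 and MYC. They were chosen by gene name from the 58735 named genes of the count table, and all 10 were among the 15351 genes tested. Poly(A) RNA was sequenced from LS174T, an established human colorectal adenocarcinoma line that the labels call goblet-like. There were 3 libraries from cells labelled FXYD3 knockout and 3 from wild-type (WT) cells of the same line, with no treatment named in the labels. FXYD3 encodes a small membrane regulator of the sodium pump. The sources used here do not say how the knockout was made, whether it is 1 clone, or whether the libraries came from separate cultures. The p-values therefore measure library-to-library spread only, and that spread may be technical.

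JUN and FOS proteins belong to the basic leucine zipper (bZIP) family and bind DNA as pairs called AP-1. JUN proteins can pair with each other, whereas FOS proteins need a JUN partner. The AP-1 site is the TGANTCA element, and JUN paired with ATF proteins favours the longer TGACGTCA element. FOS, EGR1, JUN and MYC are immediate early genes, whose transcripts appear quickly after growth factor or stress signals and are short-lived. In the intestine these factors act downstream of growth factor and Wnt signalling, and MYC is a Wnt target in colorectal cancer cells.

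The promoters of JUN, FOSL2, FOS and EGR1 are printed because JUN and FOSL2 had the smallest p-values among the 10 genes and FOS and EGR1 the widest spread between libraries. Each runs 5′ to 3′ on the gene's strand from 220 bases before to 20 bases after the RefSeq start of transcription, in build GRCh38.p14. Capitals mark matches on either strand to these elements, to TGACATCA, a variant known from JUN, and to TGACGT, which any longer TGACGTCA match contains. They also mark CArG boxes, the sites bound by serum response factor. The JUN window is chr1:58784028-58784267 on the minus strand. The FOSL2 window is chr2:28392638-28392877, the FOS window chr14:75278608-75278847 and the EGR1 window chr5:138465259-138465498, all on the plus strand. The JUN and FOSL2 windows lie inside the genes as counted, which start farther upstream than the RefSeq start used here.
JUN: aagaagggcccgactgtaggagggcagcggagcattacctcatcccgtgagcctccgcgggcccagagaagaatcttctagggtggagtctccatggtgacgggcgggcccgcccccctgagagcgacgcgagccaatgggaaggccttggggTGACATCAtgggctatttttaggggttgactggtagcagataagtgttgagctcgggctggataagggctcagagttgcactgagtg
FOSL2: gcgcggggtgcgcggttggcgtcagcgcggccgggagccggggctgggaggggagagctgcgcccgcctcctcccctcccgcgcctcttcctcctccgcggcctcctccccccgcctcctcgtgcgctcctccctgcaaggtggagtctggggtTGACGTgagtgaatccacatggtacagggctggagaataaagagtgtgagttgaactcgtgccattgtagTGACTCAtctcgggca
FOS: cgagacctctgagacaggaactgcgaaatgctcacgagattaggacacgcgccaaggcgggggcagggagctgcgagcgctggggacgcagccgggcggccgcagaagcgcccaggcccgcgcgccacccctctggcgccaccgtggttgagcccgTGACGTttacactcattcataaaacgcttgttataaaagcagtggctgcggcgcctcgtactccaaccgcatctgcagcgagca
EGR1: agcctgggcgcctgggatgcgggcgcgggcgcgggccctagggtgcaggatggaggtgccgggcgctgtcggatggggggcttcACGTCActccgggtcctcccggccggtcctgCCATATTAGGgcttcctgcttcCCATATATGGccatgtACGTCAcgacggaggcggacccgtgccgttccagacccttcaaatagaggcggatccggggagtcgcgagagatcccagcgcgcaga

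RefSeq promoters of 300 bases, from 250 before to 50 after the start, were found for 8 of the 10 genes, without FOSL1 and MYC. TGACATCA lay at position -67 of JUN and also in ATF3, and 2.61% of all 35116 promoters held it. TGACGT was found in 5 genes, FOS at position -64, FOSL2 at -66, FOSB, JUND and EGR1, against 7.98% of all promoters. The TGANTCA element was found in FOSL2 alone, 5 bases past the start, against 7.71% of all promoters, and the full TGACGTCA in JUND alone, against 1.85%. Of the 8 genes, EGR1 alone held CArG boxes within these 300 bases, at positions -105 and -83, against 1.29% of all promoters. Sites farther from the start were not searched, so a gene without a match here may hold one there. These are matches of letters, with no binding measured.

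JUN and JUNB rose, FOSL2 fell, and the other 7 genes did not pass the test. This was edgeR's quasi-likelihood test, with p-values adjusted by the Benjamini-Hochberg method over all genes tested and calls made below 0.05. The 3 genes called are 30.0% of the 10, against 24.3% of all tested genes. Among all tested genes 12.0% were called higher and 12.4% lower. Libraries of the groups did not overlap for JUN, JUNB, FOS, FOSL2 and MYC, 5 of the 10 genes, against 37.2% of all tested genes. The median log2 fold change, knockout-labelled over WT, was 0.11 for the 10 genes and 0.00 for all tested genes.

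FXYD3 itself was not lower in the libraries labelled knockout. It had 79, 131 and 85 counts in the knockout-labelled libraries, against 54, 91 and 55 counts in the WT libraries. Its log2 fold change was 0.54 (SE 0.20), with an adjusted p of 0.0522. The sources used here do not say how the knockout was made, and the reason for the FXYD3 level was not tested. The transcript therefore does not check the label. Named genes received 15417232, 19453217 and 16581832 counts in knockout-labelled libraries 1 to 3, against 17585885, 17596549 and 16507805 counts in the WT libraries. Levels below are CPM, which divide the counts by TMM-adjusted library sizes.

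Markers of the line's own cell type moved with the groups. Of 17 goblet and colon epithelial markers, 0 rose, 8 fell and 9 did not pass, so 47.1% were called against 24.3% of all tested genes, with a median log2 fold change of -0.20. Those that fell were the mucins MUC5AC (-3.30) and MUC2 (-0.99), the secretory genes AGR2 (-0.56), TFF3 (-0.62) and FCGBP (-0.37), the factors CDX1 (-0.67) and SPDEF (-0.84), and the adhesion gene CDH1 (-0.36). The summed level of the 17 was 12191 to 12982 CPM in the knockout-labelled libraries and 11807 to 13379 CPM in WT, and the epithelial marker EPCAM did not pass the test. Of 7 leukocyte markers PTPRC and CD3E had no counts in any library, and the sum was 32.6 to 34.1 CPM in the knockout-labelled libraries and 34.6 to 38.7 CPM in WT. Most of that sum was LYZ, at 32.9 ± 0.505 CPM in the knockout-labelled libraries and 32.0 ± 1.43 CPM in WT (SD, n = 3 each), and of the pair tested CD14 fell (-3.24) and LYZ did not pass. The 5 endothelial markers summed to 0.194 to 0.596 CPM in the knockout-labelled libraries and 0.0621 to 0.169 CPM in WT, with PECAM1 and KDR at 0. The part of these markers in the results below was not tested.

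**Figure D1:**
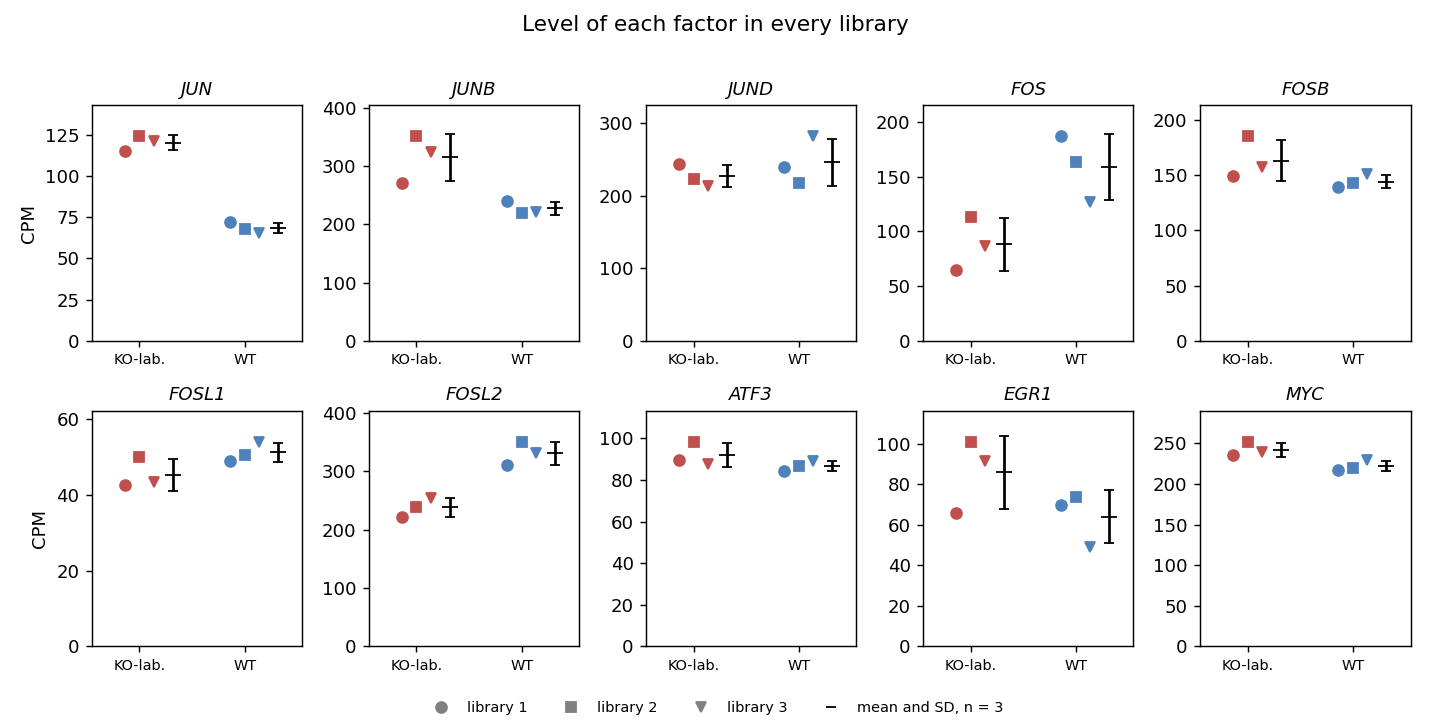
Level of each of the 10 genes in every library, in CPM on axes that start at 0, with 1 panel per gene. Points are libraries, with knockout-labelled ones (KO-lab.) in red on the left and WT ones in blue on the right, and bars are the mean and SD of 3 libraries. JUN averaged 120 CPM in the knockout-labelled libraries against 68.4 CPM in WT, and FOSL2 238 CPM against 330 CPM.

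JUN, which encodes c-Jun, the main target of the JNK kinases, had the largest rise of the 10 genes. The single-exon gene (ENSG00000177606) lies on chromosome 1 from 58780788 to 58784327, minus strand. It had 115, 124 and 121 CPM in the knockout-labelled libraries, against 71.8, 67.8 and 65.5 CPM in the WT libraries. Every knockout-labelled library was well above every WT library, and the spread within each group was small. The log2 fold change was 0.81 (SE 0.06), a 1.76-fold higher level, with an edgeR adjusted p of 7.15e-11. In bulk RNA, a change in the share of cells that express a gene and a change in RNA per cell cannot be told apart.

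JUNB, whose product can oppose c-Jun at some promoters, also rose. This single-exon gene (ENSG00000171223) lies on chromosome 19 from 12791496 to 12793315, plus strand. It had 271, 351 and 323 CPM in the knockout-labelled libraries, against 239, 219 and 221 CPM in the WT libraries. The lowest knockout-labelled library was still above the highest WT library, but the knockout-labelled libraries were spread more widely. The log2 fold change was 0.48 (SE 0.08) with an adjusted p of 8.93e-05. JUNB overlaps HOOK2, which encodes a microtubule adaptor, on the opposite strand. HOOK2 fell, with a log2 fold change of -0.26 and an adjusted p of 0.0034, and the strand setting of the counting is not given in the sources used here.

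JUND, the JUN gene that most cells express without a stimulus, did not pass the test. The gene lies on chromosome 19 from 18279760 to 18281622, minus strand (ENSG00000130522). It had 243, 223 and 214 CPM in the knockout-labelled libraries, against 239, 218 and 282 CPM in the WT libraries. WT library 3 was the highest, and the groups overlapped. Its fitted change was -0.12 on the log2 scale (SE 0.08, interval at 95% from -0.29 to 0.05; adjusted p 0.309). Without WT library 2 it was -0.20 with an adjusted p of 0.00907.

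Levels of different genes are compared here as CPM per kilobase of the gene length in the deposited table. JUN made up 10.4, 10.1 and 10.5% of the summed per-kilobase level of the JUN genes in the knockout-labelled libraries, against 7.24, 7.46 and 6.35% in the WT libraries. JUND made up 41.8, 34.5 and 35.2% in the knockout-labelled libraries, against 45.8, 45.6 and 51.9% in WT. JUN's share was higher and JUND's lower in every knockout-labelled library than in any WT library. JUNB made up 52.5 ± 4.15% in the knockout-labelled libraries and 45.2 ± 3.02% in WT (SD, n = 3 each). The summed level of the JUN genes was 329 ± 18.2 CPM per kilobase in the knockout-labelled libraries and 276 ± 17.8 CPM per kilobase in WT.

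**Figure D2:**
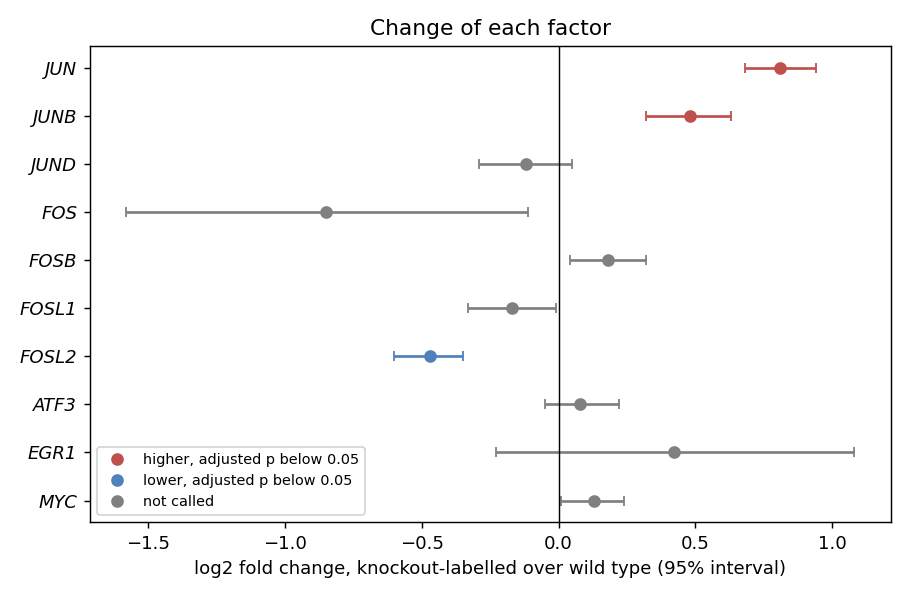
Log2 fold change of each of the 10 genes, knockout-labelled over WT, with its 95% interval from edgeR, in red where called higher, blue where called lower and grey where not called. JUN at 0.81 and JUNB at 0.48 were called higher and FOSL2 at -0.47 was called lower, while the interval of FOS reached from -1.58 to -0.11 without a call.

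FOSL2 encodes FRA2, a FOS protein without the strong activation domain of c-Fos. It was the only FOS gene that the main edgeR test called lower. The gene spans chromosome 2 from 28392448 to 28417312, plus strand (ENSG00000075426). It had 222, 238 and 254 CPM in the knockout-labelled libraries, against 311, 350 and 330 CPM in the WT libraries. All 3 knockout-labelled libraries were below all 3 WT libraries. The log2 fold change was -0.47 (SE 0.06), a level 0.721 times that in WT, with an adjusted p of 8.97e-07. The antisense gene FLJ31356 inside it had 38 counts over the 6 libraries and the intronic transcript AC104695.3 had 7.

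FOS, the gene of c-Fos, had the lowest log2 fold change of the 10 genes but did not pass the test. Its locus is on chromosome 14 from 75278774 to 75282230, plus strand (ENSG00000170345). It had 64.7, 113 and 87.1 CPM in the knockout-labelled libraries, against 187, 163 and 127 CPM in the WT libraries. The groups did not overlap, but the highest library of a group was 1.74 times the lowest among knockout-labelled libraries and 1.47 times among WT libraries. On the log2 scale the difference was -0.85 (SE 0.27, interval at 95% from -1.58 to -0.11; adjusted p 0.105). The call differed between methods: without edgeR's robust step the adjusted p was 5.3e-05, with limma voom 6.9e-05 and with DESeq2 0.0131, at nearly the same fold change.

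FOSB, known for its stable deltaFosB form, did not pass the test. It lies on chromosome 19 from 45467995 to 45475179, plus strand (ENSG00000125740), and overlaps the DNA repair gene ERCC1 on the opposite strand. It had 149, 185 and 157 CPM in the knockout-labelled libraries, against 139, 143 and 151 CPM in the WT libraries. Knockout-labelled library 1 lay below WT library 3, so the groups overlapped. The log2 fold change was 0.18 (SE 0.07) with an adjusted p of 0.0567, which became 0.0342 with upper-quartile scaling, 0.0229 without knockout-labelled library 1 and 0.0386 without WT library 3. ERCC1 had a log2 fold change of 0.12 with an adjusted p of 0.367.

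FOSL1 encodes FRA1, a FOS protein tied to migration in carcinoma cells, and did not pass the test. Its locus is on chromosome 11 from 65892049 to 65900573, minus strand (ENSG00000175592). It had 42.6, 50.1 and 43.3 CPM in the knockout-labelled libraries, against 49.0, 50.6 and 54.0 CPM in the WT libraries. Knockout-labelled library 2 lay among the WT libraries. The log2 fold change was -0.17 (SE 0.08) with an adjusted p of 0.117, and -0.25 with an adjusted p of 0.0361 without that library.

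FOSB took a larger share of the summed per-kilobase level of the FOS genes in the knockout-labelled libraries. Its share was 26.7, 26.0 and 24.9% in the knockout-labelled libraries, against 16.5, 16.9 and 19.2% in the WT libraries. The share of FOS was 23.6 ± 3.64% in the knockout-labelled libraries, with 27.2% as the highest, and 33.0 ± 5.06% in WT, with 27.8% as the lowest (SD, n = 3 each). Per kilobase neither share overlapped between groups, although neither gene passed the test. Without division by gene length, FOS held 19.2% in both knockout-labelled library 2 and WT library 3. FOSL2, which fell, held 29.4 ± 2.91% in the knockout-labelled libraries and 31.1 ± 2.27% in WT (SD, n = 3 each), so its share overlapped while the sum of the FOS genes was lower. That sum was 100, 128 and 114 CPM per kilobase in the knockout-labelled libraries, against 152, 152 and 141 CPM per kilobase in WT.

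**Figure D3:**
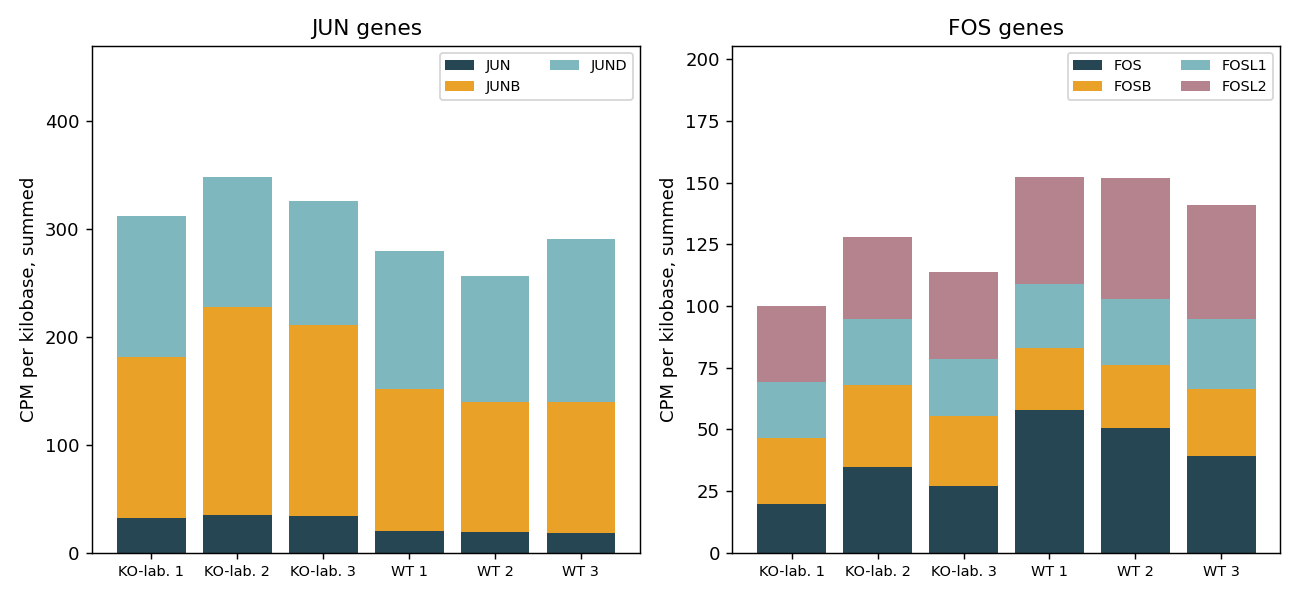
Summed level of the JUN genes and of the FOS genes in each library, in CPM per kilobase, with the 3 knockout-labelled libraries left of the 3 WT libraries and each bar divided by gene. The JUN bars average 329 against 276 CPM per kilobase in WT, and the FOS bars 114 against 148 CPM per kilobase in WT.

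The order of JUN and FOS differed between the groups. The per-kilobase level of JUN was 1.63, 1.01 and 1.27 times that of FOS in the knockout-labelled libraries, against 0.351, 0.38 and 0.471 times in the WT libraries. In the knockout-labelled libraries the per-kilobase order was JUNB, JUND, MYC, JUN, FOSL2, FOSB, EGR1, FOS, FOSL1 and ATF3. The first 3 were separated from each other and from JUN in every library, and from JUN downwards neighbours overlapped. In WT the order was JUND, JUNB, MYC, FOS, FOSL2, FOSL1, FOSB, ATF3, EGR1 and JUN. There JUND and JUNB overlapped, as did FOS and FOSL2, FOSL1 and FOSB, and ATF3, EGR1 and JUN as neighbours.

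ATF3, a stress-induced factor that pairs with JUN proteins, did not pass the test. It lies on chromosome 1 from 212565334 to 212620777, plus strand (ENSG00000162772). It had 89.8, 98.4 and 87.9 CPM in the knockout-labelled libraries, against 84.3, 86.9 and 89.3 CPM in the WT libraries. The groups overlapped. Its fitted change was 0.08 on the log2 scale (SE 0.06, interval at 95% from -0.05 to 0.22; adjusted p 0.373).

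EGR1, a zinc finger factor induced through ERK and serum response factor, did not pass the test. Its locus is on chromosome 5 from 138465490 to 138469315, plus strand (ENSG00000120738). It had 65.7, 101 and 91.3 CPM in the knockout-labelled libraries, against 69.6, 73.6 and 49.1 CPM in the WT libraries. Knockout-labelled library 1 lay within the WT range, and WT library 3 was the lowest of all. The difference was 0.42 on the log2 scale (SE 0.24, interval at 95% from -0.23 to 1.08; adjusted p 0.312). It passed without edgeR's robust step, with an adjusted p of 0.0181, with limma voom at 0.0225, and without knockout-labelled library 1 at 0.0336.

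MYC, a helix-loop-helix factor that drives growth genes, did not pass the test although its groups did not overlap. The gene spans chromosome 8 from 127735434 to 127741434, plus strand (ENSG00000136997). It had 236, 252 and 239 CPM in the knockout-labelled libraries, against 217, 220 and 229 CPM in the WT libraries. Both groups were tight, and the lowest knockout-labelled library was above the highest WT library. On the log2 scale the difference was 0.13 (SE 0.05, interval at 95% from 0.01 to 0.24). Its adjusted p was 0.0944, which became 0.0404 with total-count scaling and 0.0487 with upper-quartile scaling.

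In the main edgeR fit, FOS and EGR1 had larger SEs than nearly all tested genes above 50 CPM. Among the 4764 tested genes above 50 CPM, whose median SE was 0.07, 99.9% had a smaller SE than FOS and 99.8% a smaller SE than EGR1. MYC had one of the smallest SEs, with only 3.84% below it. These SEs depend on edgeR's robust step. Without that step the edgeR adjusted p was 5.3e-05 for FOS and 0.0181 for EGR1, at the same fold changes. Among the 3 knockout-labelled libraries, library 1 was lowest, library 3 intermediate and library 2 highest for 7 of the 10 genes, an order chosen after the values were seen. The same order held for 33.3% of 36 other early genes and for 16.9% of all tested genes. Library 2 was also the deepest of the 3 and library 1 the shallowest, and the part of depth in this order was not tested.

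**Figure D4:**
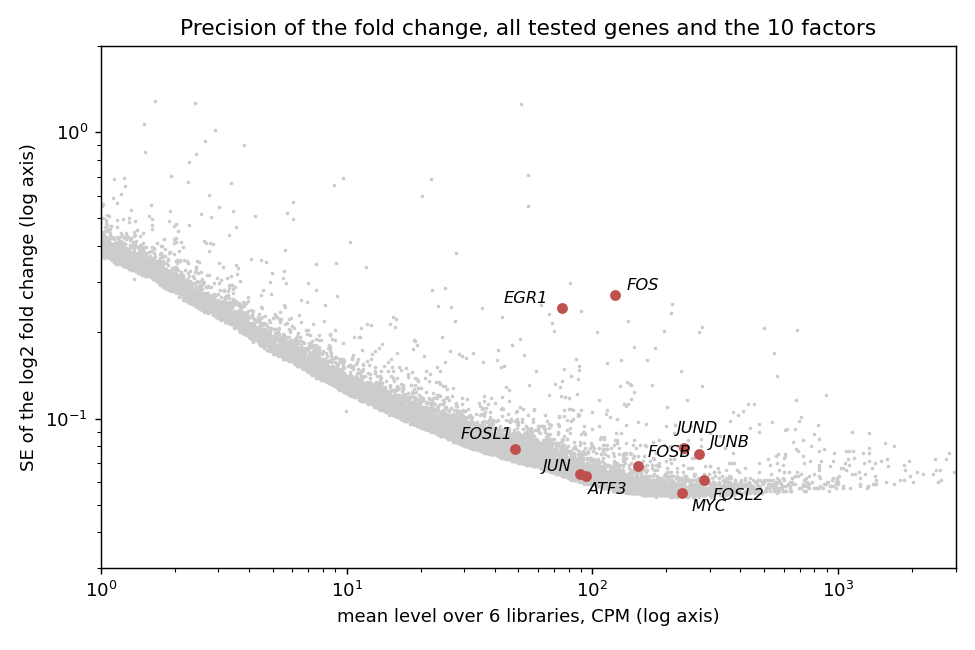
SE of the log2 fold change against mean level in CPM over the 6 libraries, on log axes that leave out genes below 1 CPM and the few most abundant ones. Grey points are tested genes and red points the 10 genes, with FOS and EGR1 far above genes of similar level and the other 8 near or within the main band.

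Other immediate and delayed early genes moved in both directions. Of 36 tested, 10 rose, 13 fell and 13 did not pass, so 63.9% were called against 24.3% of all tested genes, with a median log2 fold change of -0.10. This list, like the others here, was chosen with earlier results of these data known, and the 24.3% is not matched to it for level. CTGF, a secreted matrix protein, had 26.2, 26.2 and 24.5 CPM in the knockout-labelled libraries, against 6.65, 7.08 and 8.26 CPM in WT. It rose by 1.81 on the log2 scale (SE 0.11, adjusted p 7.65e-13). The zinc finger factor KLF6 (0.68, SE 0.06), the stress gene GADD45A (0.81, SE 0.07) and the ERK phosphatase DUSP5 (1.10, SE 0.10) also rose on the log2 scale. The summed level of 7 fibroblast markers was 6.49 to 8.29 CPM in the knockout-labelled libraries and 1.33 to 2.11 CPM in WT. Only 2 of the 7 were tested, of which 1 rose and 1 did not pass. Most of the knockout-labelled sum was COL3A1, at 5.63 ± 0.453 CPM, against 0.313 ± 0.0901 CPM in WT. COL1A2 was at 0 in all libraries. The part of other cell types in these changes was not tested.

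**Figure D5:**
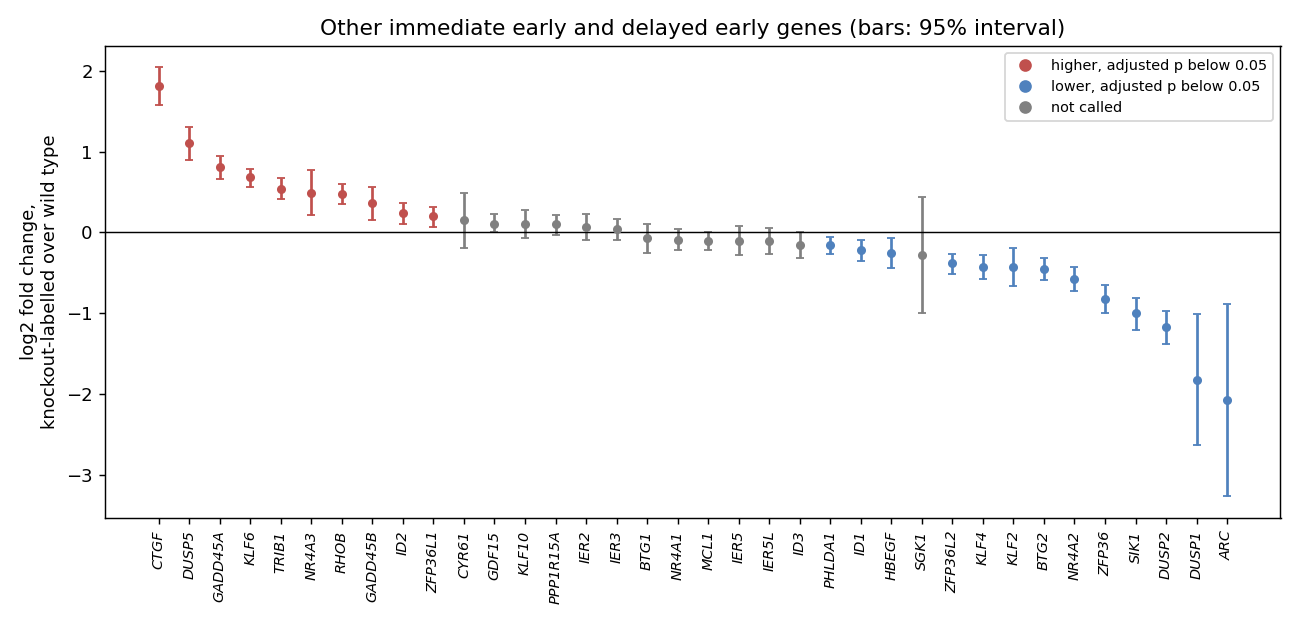
Log2 fold change, knockout-labelled over WT, of the 36 other early genes tested, ordered by value, with bars for the 95% interval. Red points are the 10 genes called higher, blue points the 13 called lower and grey points the 13 not called, and CTGF at 1.81 is the highest.

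In 4 lists of partners and regulators of these factors, no list had a larger share called than the 24.3% of all tested genes. The list of the MYC network, described below, had a larger share, with 38.5% called. Of 25 other bZIP genes tested, 1 rose and 4 fell. Those that fell include CREB3L1, a membrane-bound factor of the secretory pathway (log2 fold change -1.32, SE 0.10), JDP2, a repressor that pairs with JUN proteins (-0.74, SE 0.09), ATF4 (-0.37, SE 0.06) and ATF1 (-0.36, SE 0.08). JDP2 had 29.1 ± 2.68 CPM in the knockout-labelled libraries and 48.7 ± 4.97 CPM in WT (SD, n = 3 each). Of 32 genes of the ERK, JNK and p38 kinase chain, 2 rose and 3 fell, or 15.6% called. MAP3K5, a stress kinase upstream of JNK and p38, fell (-0.72, SE 0.08), as did the ribosomal S6 kinase RPS6KA2 (-0.43, SE 0.08), while the p38 genes MAPK11 (0.79, SE 0.10) and MAPK12 (0.41, SE 0.08) rose. MAPK12 overlaps HDAC10 on the same strand, and HDAC10 had 244 counts in all.

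Of 6 genes of serum response factor and its partners only SRF passed, with a log2 fold change of 0.24 (SE 0.07, adjusted p 0.00901), and without WT library 1 its adjusted p was 0.119. Of 17 corepressors of EGR1 and regulators that bind JUN, FOS or JUND, 3 rose and 1 fell, or 23.5% called. TRIB2 rose to 25.8 ± 0.638 CPM in the knockout-labelled libraries, against 8.40 ± 1.43 CPM in WT (log2 fold change 1.62, SE 0.11, adjusted p 1.32e-11). TRIB1 rose too (0.54, SE 0.06), and both encode pseudokinases that guide the ubiquitin ligase COP1. NAB2, an EGR1 corepressor, rose (0.56, SE 0.10); it overlaps STAT6 on the opposite strand, whose log2 fold change was 0.08 with an adjusted p of 0.325. The histone deacetylase gene HDAC3 fell (-0.20, SE 0.07, adjusted p 0.0338), but in 6 of the 16 alternative analyses it did not pass, with adjusted p-values of 0.0599 to 0.157.

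Known targets of AP-1 moved in both directions. Of 38 listed genes 25 were tested, of which 10 rose and 6 fell, or 64.0% called against 24.3% of all tested genes, with a median log2 fold change of 0.01. The 13 not tested had too few counts. These targets and those of EGR1 and MYC were also chosen with earlier results known, so their shares called are descriptions only. GJA1, a gap junction protein, rose (log2 fold change 1.79, SE 0.09), as did the EGF receptor ligands AREG (0.76, SE 0.06) and EREG (0.51, SE 0.06). CD44, an adhesion receptor that is also on the EGR1 list, rose too (0.54, SE 0.06). These genes were named for their smallest p-values, and the 6 that fell are not among them. AREG had 363 ± 22.8 CPM in the knockout-labelled libraries and 215 ± 11.5 CPM in WT (SD, n = 3 each). Of 16 EGR1 targets tested, 6 rose and 2 fell, or 50% called against the same 24.3%, with a median of 0.14. The matrix gene THBS1 (1.31, SE 0.09) and the coagulation starter F3 (1.16, SE 0.09) rose, whereas the angiogenic factor VEGFA fell (-0.64, SE 0.06).

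Of 13 genes of the MYC network 2 rose and 3 fell, or 38.5% called against 24.3% of all tested genes. MLXIPL, a glucose-sensing partner of MLX, rose (log2 fold change 0.56, SE 0.08), as did MXD4 (0.30, SE 0.07), while the MAX partners MXD1 (-0.46, SE 0.08) and MYCL (-0.43, SE 0.08) fell. MXD1 overlaps SNRNP27 on the same strand, whose log2 fold change was -0.23 with an adjusted p of 0.0888. Of 40 MYC targets 1 rose and 11 fell, or 30.0% called against 24.3% of all tested genes, with a median of -0.08. The amino acid transporter SLC7A5 (-0.59, SE 0.06), the serine metabolism enzyme SHMT2 (-0.37, SE 0.06) and the fatty acid synthase FASN (-0.32, SE 0.06) fell. TERT, the catalytic subunit of telomerase, fell to 0.632 ± 0.304 CPM in the knockout-labelled libraries, against 4.55 ± 0.730 CPM in WT (-2.79, SE 0.31, adjusted p 5.36e-08). MYC itself did not pass the test.

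The genes whose levels most resembled those of JUN and FOSL2 across the 6 libraries are given as a description, since the libraries fall into the same 2 groups. For FOSL2 they were CEMIP (Pearson r 0.9962), RGS14 (0.9959) and CARD10 (0.9949). For JUN they were EHD2 (0.9983), KLF6 (0.9981) and SRGAP1 (0.998), and 430 of 10485 protein-coding genes had an r over 0.95 with JUN.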

How the data were processed

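The deposited table holds read counts per gene, whole numbers without normalization, made by the authors. The submitters' processing notes name HISAT2 2.0.5 and featureCounts 1.5.0-p3. The notes also list a mouse build, mm10, but the identifiers are human, and the coordinates of the 10 genes match GENCODE 29 on GRCh38. The annotation, strand setting and handling of multiply matching reads were not stated in the sources used here. Of 58967 rows, 232 without a gene name, with 0.13 to 0.25% of counts, were left out. Gene lengths in the deposited table are in bases.

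edgeR 4.0.16 in R 4.3.3 fitted 3 knockout-labelled against 3 WT libraries without covariates, with TMM scaling, filterByExpr at a minimum count of 10 and robust estimation, two-sided. Fold changes are knockout-labelled over WT. CPM was computed here from the counts. The rule for genes named beyond the 10 took up to 4 called genes of smallest p per list, FXYD3, overlapping genes and the 3 most like JUN and FOSL2. Cell type markers, DUSP1, ZFP36 and NR4A1 were named outside it, after their values were seen. Alternatives were other scalings and filters, DESeq2 1.42.0, limma voom 3.58.1, no robust step, protein-coding genes, a replicate block and each library left out. The genes and lists were chosen with earlier results of these data known. Motifs were searched in RefSeq promoters (GRCh38.p14) from 250 bases before to 50 after each start.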

Additional observations from a re-analysis of the deposited data

How the results depend on the processing

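Over 16 alternatives, JUN, JUNB and FOSL2 kept their direction and their call, and ATF3 stayed uncalled. The number of the 10 genes called higher was 4 with upper-quartile and with total-count scaling and 2 to 4 with 1 library left out; the number called lower was 2 with DESeq2, voom or no robust step and 1 to 2 with 1 library left out. FOS had a log2 fold change of -0.85 with DESeq2, -0.86 with voom and -0.85 without the robust step. EGR1 had 0.43 with voom and 0.42 without the robust step, and 0.26 to 0.58 with 1 library left out. FOSB had 0.20 with upper-quartile scaling, 0.21 with total counts, 0.19 on protein-coding genes and 0.08 to 0.24 with 1 library left out. FOSL1 had -0.25 to -0.13 and JUND -0.20 to -0.02 with 1 library left out. MYC had 0.15 with upper-quartile and with total-count scaling. Over all genes, 1329 to 2189 were called higher and 1376 to 2401 lower with 1 library left out. Without division by gene length, shares in the knockout-labelled and WT libraries were 18.2% and 12.7% for JUN, 47.5% and 41.9% for JUNB, 16.3% and 23.2% for FOS, 30.5% and 21.1% for FOSB, 8.49% and 7.49% for FOSL1, and 44.7% and 48.2% for FOSL2. FXYD3, not called as reported, was called higher in 5 alternatives, with adjusted p-values of 0.00313 to 0.0479. Deviations of same-numbered libraries from their group means correlated at 0.0277, -0.0977 and -0.123. With 3 libraries per group, such correlations cannot decide whether the replicate numbers pair the libraries. The replicate block gave 1478 genes called higher and 1475 lower and changed no call of the 10 genes. The cause of each difference was not tested.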

Other observations

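Beside the uncalled FOS, the early genes DUSP1 and ZFP36 were called lower and NR4A1 was not called. They were chosen here after their values were seen. Among the 36 other early genes tested, 10 were called higher and 13 lower. DUSP1, a phosphatase that inactivates p38 and JNK, had 24.0, 47.9 and 34.4 CPM in the knockout-labelled libraries, against 150, 119 and 109 CPM in the WT libraries. Its log2 fold change was -1.82 (SE 0.30) with an edgeR adjusted p of 0.0167, and the knockout-labelled libraries held the order of library 1, 3 and 2 from low to high that FOS showed. ZFP36, which speeds the decay of unstable transcripts, had 73.6, 97.3 and 79.3 CPM in the knockout-labelled libraries, against 153, 148 and 140 CPM in WT. Its log2 fold change was -0.82 (SE 0.08, adjusted p 2.49e-07). NR4A1, a nuclear receptor and early gene, had 790, 859 and 797 CPM in the knockout-labelled libraries, against 805, 877 and 926 CPM in WT. It did not pass, with a log2 fold change of -0.09 and an adjusted p of 0.315.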
